A study of Mus musculus with 2 samples.

Results

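Deep-layer corticofugal-type neurons were examined in single-nucleus RNA-seq of fetal mouse whole brain. A nucleus was selected when it held at least 3 unique molecular identifiers (UMIs, the counts of captured RNA molecules) of Hs3st4, Fezf2 and Tbr1 together and at least 2 of Sox5. It also had to hold at least 1 UMI of Neurod2, Neurod6 and Bhlhe22 together, at most 2 of Reln and 0 of Eomes. Of 13366 kept nuclei, 467 were selected. They comprised 228 of 6686 nuclei in the wildtype-labelled library and 239 of 6680 in the knockout-labelled library. The study compared a wildtype sample with one in which Cav1, the gene of the caveolar membrane protein caveolin 1, was knocked out, and both samples are labelled only as fetal whole brain. The strain, the day of gestation, the number of brains in a sample and the part of Cav1 that was deleted are not given in the sources used here. Each genotype has 1 library, so no value below has a replicate check, no test was made, and every interval (95%) covers counting error only. Paired values are given with the wildtype-labelled library first.

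Corticofugal neurons are the excitatory neurons of layers 5 and 6 that send axons out of the cerebral cortex, to the thalamus, the brainstem and the spinal cord. They are among the earliest neurons of the cortex, together with those of the subplate. Fezf2 and Bcl11b direct the subcerebral program of layer 5, Tbr1 the corticothalamic program of layer 6, and Sox5 the order in which these neurons are made, while Cux2 marks upper-layer neurons that project within the cortex. Hs3st4 encodes a heparan sulfate sulfotransferase, and Neurod2, Neurod6 and Bhlhe22 encode basic helix-loop-helix factors of cortical excitatory neurons.

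The selected nuclei were deeper than the average nucleus, with a median of 3747 and 4694 UMIs against 2134 and 2366 over all kept nuclei. Their UMIs summed to 1141141 and 1459633, and the deepest nucleus held 43625 and 27385. In all, 14 and 16 of them held over 3 times the median of the selected nuclei of their library, and these carried 24.8% and 20.3% of the UMIs. The libraries shared 43 barcodes, of which 2 and 1 were carried by selected nuclei. Scrublet's automatic threshold marked 0 doublets in either library, so the caller had not worked. Leaving out the 8% of nuclei with the highest scores removed 48 selected nuclei from each library.

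Hs3st4 brought in nearly all of the selected nuclei. A Hs3st4 UMI was present in 222 of 228 (97.4%) and 233 of 239 (97.5%), a Fezf2 UMI in 51 (22.4%) and 52 (21.8%), and a Tbr1 UMI in 76 (33.3%) and 79 (33.1%). Neither Fezf2 nor Tbr1 was seen in 121 and 136 of the nuclei, which therefore qualified by Hs3st4 alone, and 14 and 25 held all 3 genes. Just inside the limit, 32 and 32 nuclei held exactly 3 UMIs of the 3 genes together, and just outside it 77 and 66 nuclei held 2 and met every other condition. With Sox5 at exactly 2 there were 12 and 12 selected nuclei, and at 1 there were 16 and 18 that met the other conditions. The condition on the helix-loop-helix genes alone kept out 104 and 118 nuclei, that on Reln 20 and 26, and that on Eomes 11 and 12.

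The share of selected nuclei was close in the 2 libraries. It was 3.41% (2.99 to 3.87, exact Clopper-Pearson) in the wildtype-labelled and 3.58% (3.15 to 4.05) in the knockout-labelled library, which differ by 0.17 points (−0.45 to 0.79). With every nucleus thinned to 2000 UMIs before selection, the share was 2.39% (88 of 3684) and 2.34% (94 of 4011). Any difference between the libraries in this share lay within the counting error of so few nuclei.

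The label was checked on genes that the selection did not use. A UMI of Foxp2, a transcription factor of layer 6, was found in 74.6% (68.4 to 80.1) and 71.1% (64.9 to 76.8) of the selected nuclei. Tle4, a corepressor of corticothalamic neurons, was found in 77.2% and 74.1%, and Zfpm2, a cofactor of GATA factors that marks layer 6, in 81.1% and 83.7%. All 3 of these genes were seen together in 124 of 228 (54.4%) and 132 of 239 (55.2%) of the nuclei, and none of them in 9 and 13. Bcl11b was present in 198 and 200 nuclei.

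For comparison, nuclei were taken that held at least 3 UMIs of Unc5d, a netrin receptor of migrating upper-layer neurons, and at least 1 of Neurod2 or Neurod6 but lay outside the selection. There were 646 and 507 of these Unc5d-positive nuclei, with median depths of 2400 and 2722 UMIs. Forebrain inhibitory nuclei, with at least 3 UMIs of Dlx and Gad genes and none of the 3 helix-loop-helix genes, numbered 713 and 783, at 2089 and 2496 UMIs. To compare shares at an equal depth, each nucleus was thinned to 2000 UMIs, which left out 29 and 12 selected, 214 and 136 Unc5d-positive and 338 and 268 inhibitory nuclei.

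At that depth Foxp2 was present in 58.3% and 56.4% of the selected nuclei, 29.4% and 33.2% of the Unc5d-positive and 33.3% and 32.0% of the inhibitory nuclei. The kainate receptor gene Grik3 was present in 68.3% and 59.5% of selected against 10.9% and 17.8% of Unc5d-positive nuclei. It was more frequent in inhibitory nuclei than in Unc5d-positive ones, at 44.3% in the wildtype-labelled library. Cdh13, which encodes T-cadherin, was found in 85.9% and 85.0% against 41.7% and 37.5%. Bcl11b set the selected nuclei apart less. In the wildtype-labelled library it was present in 73.9% of selected, 57.9% of Unc5d-positive and 59.2% of inhibitory nuclei. Cux2 was less frequent in the selected nuclei, at 12.6% and 12.8% against 49.1% and 39.6%. Gad2, an enzyme of GABA synthesis that cortical excitatory neurons should lack, was nevertheless seen in 6.53% and 14.1% of selected nuclei, against 78.4% and 72.8% of inhibitory ones. In the Unc5d-positive nuclei, which should lack it as well, the share was 10.2% and 17.0%.

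**Figure D1:**
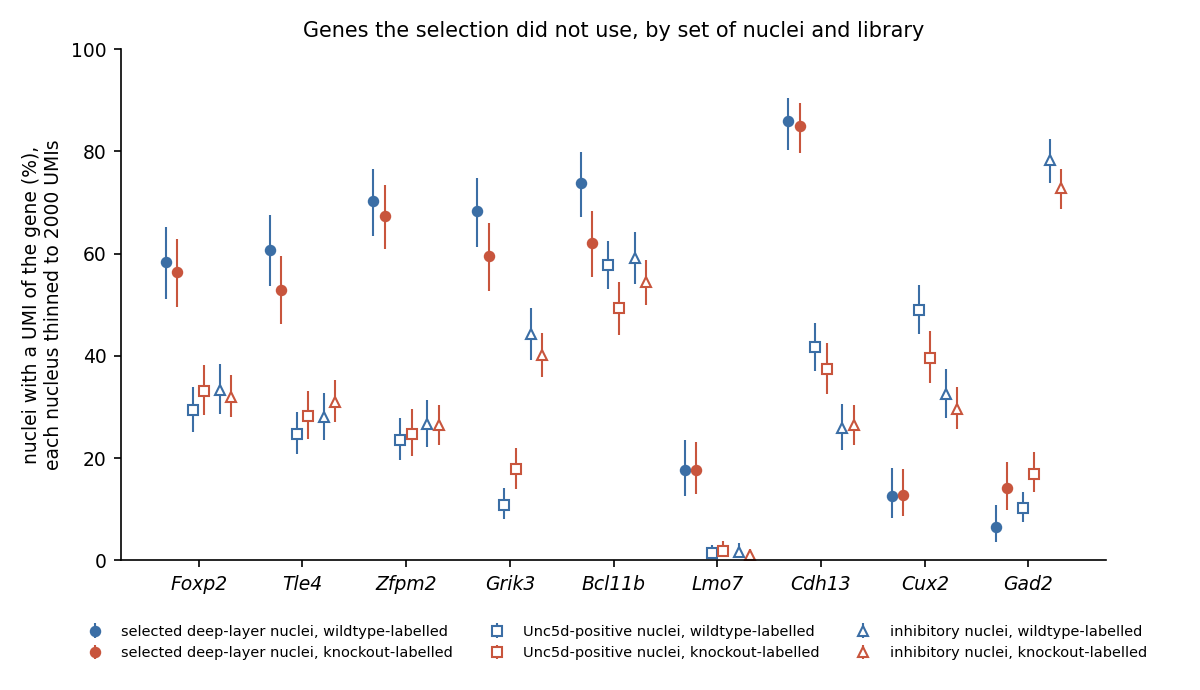
Share of nuclei with at least 1 UMI of each gene (y axis, percent) after thinning every nucleus to 2000 UMIs, for selected deep-layer nuclei (filled circles), Unc5d-positive nuclei (squares) and inhibitory nuclei (triangles) of the wildtype-labelled (blue) and knockout-labelled (red) library; bars are exact 95% intervals. Foxp2, Tle4, Zfpm2, Grik3, Lmo7 and Cdh13 were most frequent in the selected nuclei, Cux2 in the Unc5d-positive ones and Gad2 in the inhibitory ones.

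UMIs were then summed over the nuclei of each set and library and scaled to the total of the set (CPM, a share of all UMIs), so that one set can be compared with another. Of 5693 genes tested against the Unc5d-positive nuclei, 249 (4.37%) were at least 1.5-fold higher in the selected nuclei in both libraries, and 190 (3.34%) were at least 1.5-fold lower in both. Tested here means a total of 100 or more UMIs over both sets in each library. The sets were defined by their own RNA, so these differences describe the selection and were not tested.

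Among genes of corticothalamic layer 6 neurons, 4 of 9 were higher in both libraries and 1 was lower. Foxp2 was at 704 and 651 CPM in the selected nuclei against 323 and 333 CPM, log2 ratios of 1.12 and 0.97. Tle4 was at 675 and 565 CPM against 175 and 213 CPM, and Zfpm2 at 1096 and 841 CPM against 337 and 327 CPM. Grik3 had log2 ratios of 2.75 and 1.52. The exception was Ptprk, a receptor phosphatase, at 159 and 195 CPM in the selected against 676 and 624 CPM in the Unc5d-positive nuclei. Nfib, a factor broadly active in the developing cortex, was near equal with log2 ratios of −0.061 and 0.14.

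Among genes of subcerebral layer 5 neurons, 3 of 7 were higher in both libraries and 0 were lower. These were Ldb2, a LIM-domain binding protein, at 384 and 379 CPM against 156 and 169 CPM, the HMG-box factor Tox, with log2 ratios of 1.26 and 0.80, and Lmo7, with 3.24 and 2.82. Bcl11b itself was at 753 and 589 CPM against 517 and 436 CPM, log2 ratios of 0.54 and 0.43, under the 1.5-fold limit. Neither of the 2 subplate genes with enough UMIs passed it. The subplate factor Nr4a2 was seen at only 17 and 32 UMIs in the selected nuclei.

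Genes of upper-layer callosal neurons were lower as a group, with 6 of 8 lower in both libraries and 1 higher. Cux2 was at 128 and 134 CPM against 403 and 360 CPM. Cux1, Pou3f2, Pou3f3 and Lhx2, all encoding homeodomain factors, were lower too. Rorb, a nuclear receptor best known from layer 4, was the exception, at 366 and 281 CPM in the selected nuclei against 78.7 and 117 CPM. General excitatory genes divided: the activity-related factor Mef2c was higher (828 and 780 against 293 and 323 CPM), while the vesicular glutamate transporter Slc17a6 (51.7 and 76.7 against 203 and 224 CPM) and Nrn1 were lower. Among 10 tested genes of cortical area patterning, Lmo3 was higher in both libraries, and Nr2f2, Pax6 and Cdh8 were lower.

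Genes of axon guidance differed in both directions. The repulsive ligand gene Slit1 was at 213 and 193 CPM in the selected nuclei against 56.2 and 71.4 CPM in the Unc5d-positive ones. The Slit receptor gene Robo2 was at 785 and 1059 CPM against 3254 and 2676 CPM, and the semaphorin co-receptor gene Plxna4 at 344 and 417 CPM against 1716 and 1396 CPM. The netrin receptor gene Dcc was near equal, with log2 ratios of 0.037 and −0.14. In all, 1 of 24 receptor and adhesion genes was higher in both libraries and 6 were lower, and of 17 ligand genes 3 were higher and 5 lower. The NMDA receptor subunit gene Grin2b was higher (1405 and 1316 against 490 and 624 CPM), as was the splicing factor gene Rbfox1 (7691 and 6415 against 3138 and 2956 CPM).

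Ranked by the lower of the 2 libraries' ratios, the highest gene was Rgs6, a regulator of G-protein signalling, at 1002 and 854 CPM against 80.3 and 87.9 CPM, log2 ratios of 3.64 (3.39 to 3.90) and 3.28 (3.04 to 3.53). It was at 105 and 79.6 CPM in the inhibitory nuclei and at 69.2 and 136 CPM in nuclei with 2 or more UMIs of Eomes, a factor of intermediate progenitors. The next by the same rule were Tg, the thyroglobulin gene, and Hs3st3b1, another sulfotransferase gene of the Hs3st family, at 64.9 and 52.1 CPM against 2.68 and 6.04 CPM. Gm29530, a long non-coding RNA on the opposite strand within Rgs6, had log2 ratios of 3.86 and 3.10; since strand use in the counting is not stated, its reads cannot be told apart from those of Rgs6. Dync1i1, a dynein subunit gene, and Nin, which encodes the centrosomal protein ninein, had log2 ratios of 3.81 and 2.95, and of 3.60 and 2.64. Adamts18, Lmo7, Sla, St3gal1, Prickle1, Ccbe1, Sybu, Htr1f and Adamts3 completed the 15 highest. Sla lies on the opposite strand within Tg, so the reads of Tg and Sla cannot be told apart where they overlap either. At the low end stood Wwc1, Prex1, Plxna4, Ptprk, Plxna4os3, Slc17a6, Pantr1, Ust, Cux2 and Shb, with log2 ratios between −2.37 and −1.42.

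The 3 ways of qualifying gave nuclei that were not alike in every gene. Ldb2 was at 406 and 646 CPM in nuclei with Fezf2, at 362 and 399 CPM in those with Tbr1 but no Fezf2, and at 383 and 273 CPM in those with Hs3st4 alone. Foxp2 was lowest in the nuclei with Fezf2 in both libraries, at 415 and 601 CPM, against 856 and 651 CPM with Tbr1 and 793 and 669 CPM with Hs3st4 alone. In the knockout-labelled library these groups also differed in their share of nuclei with 3 or more UMIs of Snhg11, a gene described below. These levels are described for the groups the selection itself makes, carry no interval and were not tested.

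A further difference among the selected nuclei lay in Snhg11, a long non-coding RNA of differentiated neurons (chromosome 2, 158217558 to 158228071, GRCm39). No Snhg11 UMI was counted in 171 and 146 of the nuclei, 1 or 2 in 13 and 14, 3 to 5 in 13 and 9, and 12 or more in 20 and 56, with a maximum of 43 and 74. A limit of 3 UMIs, chosen after seeing the data, is used below to divide this range, and does not define a cell type. It left 184 and 160 nuclei below, with median depths of 3524 and 3508 UMIs, and 44 and 79 nuclei at or above, with 6104 and 8537 UMIs.

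Nuclei with 3 or more Snhg11 UMIs were a larger part of the selected nuclei in the knockout-labelled library. They made up 19.3% (14.4 to 25.03) and 33.1% (27.1 to 39.4), 13.8 points apart (5.89 to 21.6). The difference was largest in nuclei that qualified by Hs3st4 alone, at 25 of 121 (20.7%) and 56 of 136 (41.2%). It was smaller in nuclei with Fezf2, at 9 of 51 and 13 of 52. In those with Tbr1 but no Fezf2, the counts were 10 of 56 and 10 of 51. These groups were small, and the split among them was not tested. A difference in the same direction was seen outside the selection, with 15.5% and 22.2% over the rest of the kept nuclei, 13.5% and 23.9% of Unc5d-positive and 14.7% and 23.2% of inhibitory nuclei. At 2000 UMIs per nucleus, any Snhg11 UMI was found in 23.6% and 35.7% of the selected nuclei. Below the limit, the selected nuclei were 2.75% and 2.40% of all kept nuclei, −0.36 points apart, knockout-labelled minus wildtype-labelled (−0.89 to 0.18). Depth, the library and Snhg11 moved together, and their parts in this difference were not tested.

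Deep-layer genes took a smaller part of the UMIs above the limit than below it. A set of 8 deep-layer genes outside the selection (Foxp2, Tle4, Zfpm2, Grik3, Nfia, Nfib, Ldb2 and Lmo7) gave a median of 115 and 112 UMIs per 10000 in nuclei with under 3 Snhg11 UMIs, and 37.3 and 37.4 in the others. Much of this measure came from Nfib and Nfia, at 3862 and 4016 CPM and at 2368 and 2383 CPM below the limit. Nfib did not set the selected nuclei apart from the Unc5d-positive ones. Only 1 of 44 and 6 of 79 nuclei with more Snhg11 reached the lower quartile of those with less (89.1 and 82.9). The ranges nonetheless overlapped, at 8.38 to 206 and 18.8 to 243 below the limit and 2.89 to 94.7 and 3.37 to 110 above it. In both libraries, Rgs6 was at 1363 and 1448 CPM below the limit and 360 and 379 CPM above it, and Tle4 at 903 and 877 CPM against 270 and 317 CPM. The nuclei above the limit were also the deeper ones, and a deeper nucleus meets the selection's UMI limits at a smaller share of its UMIs; the part of depth in these differences was not tested.

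**Figure D2:**
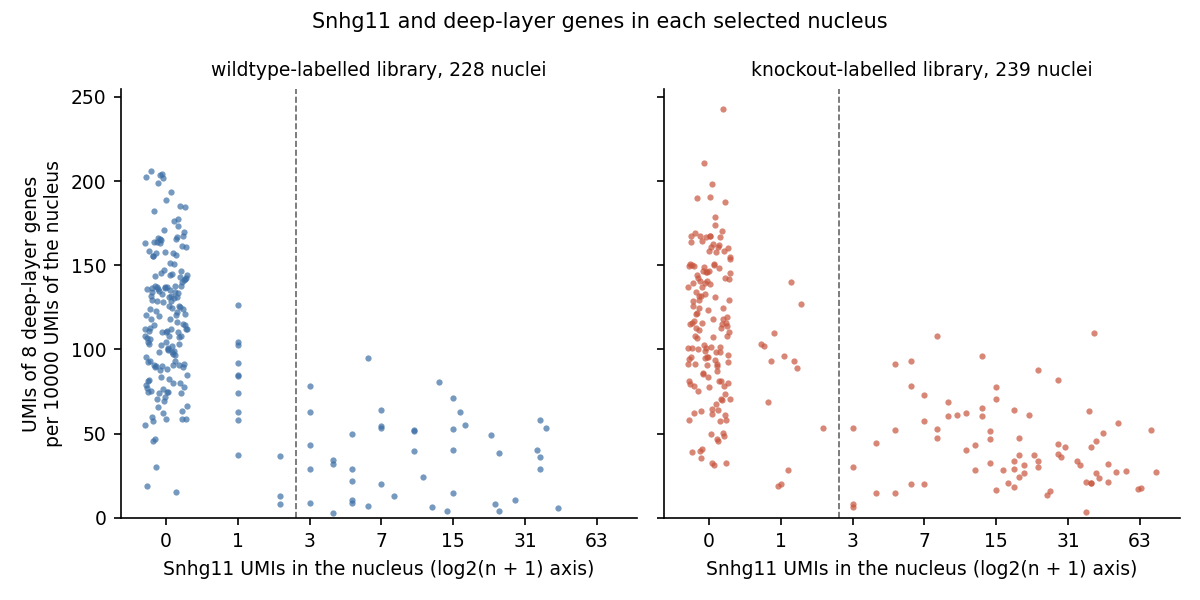
Each point is 1 selected nucleus, with its Snhg11 UMIs on the x axis (log2(n + 1) scale; points at the same count are spread sideways where over 10 share it) and the UMIs of 8 deep-layer genes per 10000 UMIs on the y axis, for the wildtype-labelled (left) and knockout-labelled (right) library. Right of the dashed line, at 3 or more Snhg11 UMIs, the medians were 37.3 and 37.4, against 115 and 112 to its left. Much of the measure came from Nfib and Nfia.

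Of 2293 genes tested, 172 (7.5%) were at least 1.5-fold higher in both libraries in the nuclei with more Snhg11 and 243 (10.6%) were lower. Of 7 corticothalamic genes tested, 0 were higher and 6 were lower, and of 6 general cortical excitatory genes 0 were higher and 5 were lower. The cell adhesion genes Cntn4 (log2 ratios of 4.05 and 4.07) and Cntnap2 (2.95 and 3.47), the metabotropic glutamate receptor gene Grm8 (4.03 and 4.32), Car10, Pcdh15, Ntng1 and Grik1 were among the highest. Tcf7l2 and Ebf1, which mark thalamic and midbrain neurons among others, had log2 ratios of 2.31 and 1.87, and of 2.72 and 1.51. All 3 tested genes of the midbrain and thalamus list and both of the tested inhibitory genes were higher in both libraries. At least 3 UMIs of inhibitory marker genes were held by 25 and 48 of the selected nuclei, and 13 and 37 of these lay at or above the Snhg11 limit. Between the libraries, the genes and lists described in detail are therefore given for all selected nuclei and also for those with under 3 Snhg11 UMIs.

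The targeted gene and its neighbours were compared first. Cav1 lies on the plus strand of chromosome 6 (17306140 to 17341451, GRCm39, GENCODE M39). It was counted with 8 UMIs in each library, a log2 ratio, knockout-labelled over wildtype-labelled, of −0.36 (−1.97 to 1.26). Of the 8 wildtype-labelled UMIs, 5 came from 1 nucleus, and the ratio was 0.64 with the top nucleus of each library left out and 2.37 without the nuclei over 3 times the median depth. Below the Snhg11 limit it had 0 and 2 UMIs. Since the deleted part of Cav1 is not given, and 3′ reads do not show which exons a transcript holds, this count does not check the label. Cav2, the gene of the partner protein caveolin 2, lies upstream on the same strand (17281026 to 17289877). It had 0 UMIs in the 228 wildtype-labelled nuclei and 64 UMIs in 49 knockout-labelled ones, a level at least 16.7-fold higher with 3 counts over the group as the floor. Below the Snhg11 limit the counts were 0 and 22. A UMI of Cav2 was thus detected in 0% and 20.5% of the nuclei at their own depth, and in 0% and 7.93% at 2000 UMIs. The exact upper bounds for 0 were 1.60% and 1.84%, and they limit the share of nuclei with a UMI at these depths, not the share that expresses the gene.

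Gm15581, a long non-coding RNA annotated on the minus strand across both genes (17206822 to 17385603), had 8 and 155 UMIs in 6 and 84 nuclei, 7.01 and 106 CPM, a log2 ratio of 3.92 (2.91 to 5.16). In nuclei with under 3 Snhg11 UMIs 4 and 52 UMIs were counted (log2 ratio 3.87, 2.43 to 5.80). Without stated strand use, its reads cannot be told apart from those of Cav1 and Cav2 where the genes overlap. Outside the selected nuclei Gm15581 had 54 and 1679 UMIs and Cav2 19 and 700, so the difference was not restricted to the deep-layer nuclei. Other caveolar genes were scarce: Cav3 had 0 UMIs in both libraries, Cavin1 1 and 3, Cavin2 2 and 4, and Cavin3 4 and 4. Cavin4 had 31 and 47 UMIs, and Flot2, which encodes the raft protein flotillin 2, had 70 and 70.

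Of 5140 genes tested in the selected nuclei, 145 (2.82%) passed 1.5-fold upward in the knockout-labelled nuclei and 99 (1.93%) passed it downward. The median log2 ratio over these genes was −0.0052, and 90 in 100 of them lay between −0.45 and 0.48. Counts for many of these genes rested on few nuclei. The nucleus holding the most UMIs of a gene was left out in 1 library at a time. In that check, 91 of the 145 and 32 of the 99 stayed past the limit both times. Thinned to 2000 UMIs per nucleus, which leaves fewer genes with 100 UMIs, 12 genes were past it upward and 17 downward. In the nuclei with under 3 Snhg11 UMIs, 51 of 2749 genes (1.86%) were higher and 87 (3.16%) lower, and in those with 3 or more, 96 of 2599 (3.69%) were higher and 54 (2.08%) lower. Of the 145 higher genes, 29 could be compared between these classes of nuclei, and 24 of them were also higher in both libraries in nuclei with more Snhg11. Over all genes so compared, 172 of 2293 (7.5%) were higher there and 243 (10.6%) lower. Of the 99 lower genes, 32 could be compared, and 17 were lower and 1 higher in nuclei with more Snhg11.

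**Figure D3:**
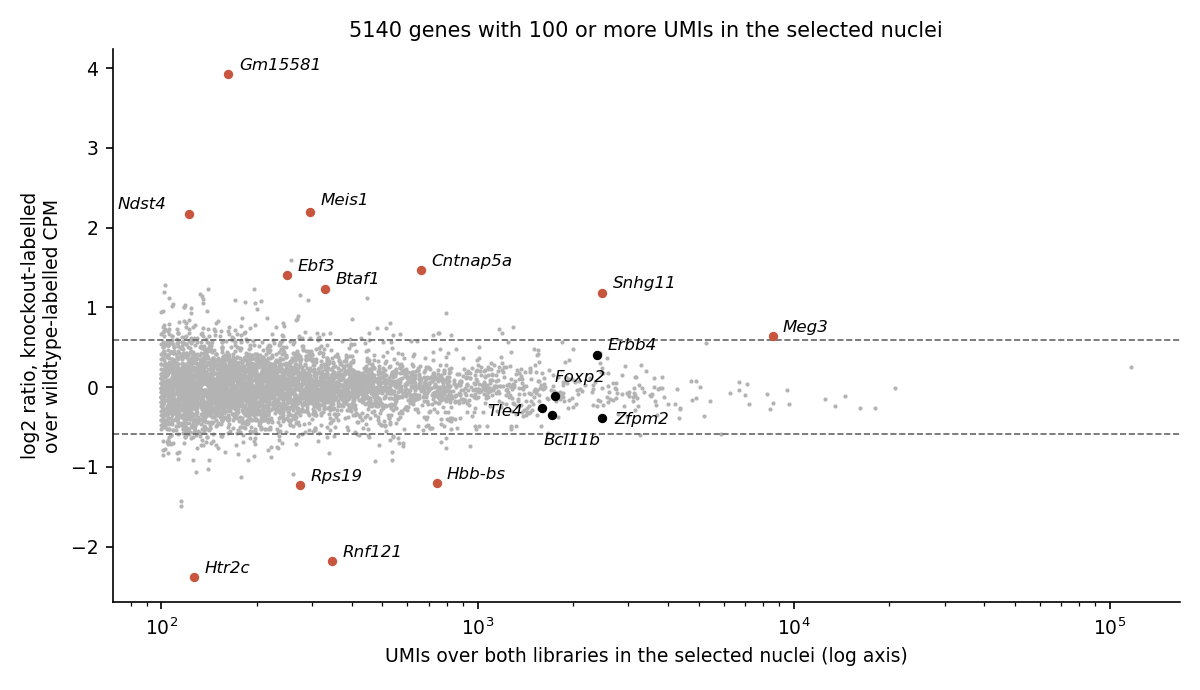
Each point is 1 of 5140 genes, with its UMIs over both libraries in the selected nuclei on the x axis (log scale) and the log2 ratio of knockout-labelled over wildtype-labelled CPM on the y axis; dashed lines mark 1.5-fold. Gm15581 (3.92), Meis1 (2.20) and Ndst4 (2.18) stood highest and Htr2c (−2.38) and Rnf121 (−2.18) lowest, while the deep-layer genes Foxp2, Tle4, Zfpm2 and Bcl11b lay within the lines.

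The deep-layer genes Foxp2, Tle4, Zfpm2 and Bcl11b did not pass the fold limit between the libraries. Tle4, Zfpm2 and Bcl11b were nonetheless lower in the knockout-labelled library over all selected nuclei, by more than counting error. Below the Snhg11 limit, Foxp2, Tle4 and Bcl11b were near equal. Over all selected nuclei the log2 ratio was −0.11 (−0.25 to 0.025) for Foxp2, −0.26 (−0.40 to −0.11) for Tle4, −0.38 (−0.50 to −0.27) for Zfpm2 and −0.35 (−0.49 to −0.22) for Bcl11b. In nuclei with under 3 Snhg11 UMIs, Foxp2 was at 855 and 887 CPM, Tle4 at 903 and 877 CPM and Bcl11b at 903 and 915 CPM, log2 ratios of 0.054, −0.042 and 0.020. Zfpm2 remained slightly lower there, at 1386 and 1181 CPM, a log2 ratio of −0.23, and Ldb2 was higher, at 437 and 582 CPM, 0.41. Of 9 corticothalamic genes 1 passed the limit, Thsd7b, with 80 and 161 UMIs over all selected nuclei and 27 and 20 below the Snhg11 limit. Of 7 subcerebral, 3 subplate and 8 general excitatory genes, 0 passed it in either direction. The medians of these 4 lists were −0.17, −0.15, 0.40 and −0.16 over all selected nuclei and 0.054, 0.088, −0.15 and 0.080 below the Snhg11 limit.

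The 12 genes highest in the knockout-labelled library, of which Gm15581 is given above, differed in how far they stood apart below the Snhg11 limit. Cntnap5a, a contactin-associated protein gene, had 146 and 518 UMIs in all selected nuclei, a log2 ratio of 1.47 (1.20 to 1.75), but 37 and 36 UMIs below the Snhg11 limit, 0.13 (−0.57 to 0.83). Ebf3, a factor of Cajal-Retzius and brainstem neurons, had 57 and 193 UMIs in all and 6 and 9 below the limit. Snhg11 itself had 634 and 1845 UMIs (1.19, 1.05 to 1.32), and 16 and 15 below its own limit. Meg3, a long non-coding RNA of maturing neurons, had 2864 and 5707 UMIs, a log2 ratio of 0.64, and 1216 and 1103 below the limit, 0.032.

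Other genes stood higher in the nuclei with little Snhg11 too. Meis1, a homeodomain factor gene, had 43 and 253 UMIs (2.20, 1.73 to 2.70) in all selected nuclei and 17 and 34 below the limit (1.17, 0.29 to 2.11). Ndst4, which encodes a heparan sulfate modifying enzyme, had 18 and 104 UMIs (2.18, 1.45 to 2.99) in 10 and 35 nuclei and 3 and 45 UMIs below the limit. Galnt18, a glycosyltransferase gene, had 49 and 147 UMIs (1.23, 0.75 to 1.73) and 18 and 52 below the limit, while its ratio over the other kept nuclei was 0.022. Btaf1, a regulator of the TATA-binding protein (chromosome 19, 36903472 to 36991455), had 82 and 247 UMIs in 64 and 125 nuclei (1.24, 0.87 to 1.61) and 51 and 90 below the limit (0.99, 0.48 to 1.52). It was also higher outside the selection, at a log2 ratio of 0.80. Il1rapl2, Unc13c and Chrm2 completed the 12, with log2 ratios of 1.59, 1.23 and 1.19. Below the limit their counts were 24 and 41, 8 and 19, and 10 and 22, with ratios of 0.95, 1.42 and 1.31, each in at most 10 nuclei of either library.

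At the low end, Rnf121, a ubiquitin ligase gene (chromosome 7, minus strand, 101668344 to 101714690), stood out by the number of nuclei behind it. It had 270 and 76 UMIs in 136 and 59 selected nuclei, 237 and 52.1 CPM, a log2 ratio of −2.18 (−2.57 to −1.81). Below the Snhg11 limit it had 170 and 31 UMIs (−2.28, −2.89 to −1.72). At 2000 UMIs per nucleus, 37.7% (30.9 to 44.8) and 8.37% (5.11 to 12.8) of selected nuclei held a UMI. The gene was lower outside the selection as well, at −1.46 in Unc5d-positive nuclei and −1.59 over the rest of the kept nuclei. Hs3st2, a sulfotransferase gene of the same family as Hs3st4, had 84 and 57 UMIs (−0.91, −1.43 to −0.41), and 77 and 45 below the limit (−0.60, −1.17 to −0.054).

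Several of the lowest ratios rested largely or in part on 1 nucleus. The serotonin receptor gene Htr2c had 102 and 25 UMIs, but 87 of the 102 came from 1 wildtype-labelled nucleus, and with the top nucleus of each library left out the log2 ratio went from −2.38 to −0.092. Another wildtype-labelled nucleus of 28146 UMIs held 247 haemoglobin UMIs, and ribosomal protein genes made up 20.8% of its UMIs against a median of 1.63%. It held the most wildtype-labelled UMIs for 8 of the 12 lowest genes, among them Rpl29, Rps19, Rpl28, Hba-a1, Hba-a2, Hbb-bs and Hbb-bt. Hbb-bs, a beta-globin gene of red blood cells, had 477 and 265 UMIs (−1.20), and −0.76, still past 1.5-fold, with the top nucleus of each library left out. Rps19, a ribosomal protein gene, had 177 and 97 UMIs (−1.22), and −0.56 without those nuclei. The 6 erythroid genes summed to 728 and 334 CPM in the selected nuclei, with 4 of 4 tested lower in the knockout-labelled library. The part of red cell RNA in these ratios was not tested. D130079A08Rik, another of the 12, had 86 and 54 UMIs in only 14 and 12 nuclei.

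**Figure D4:**
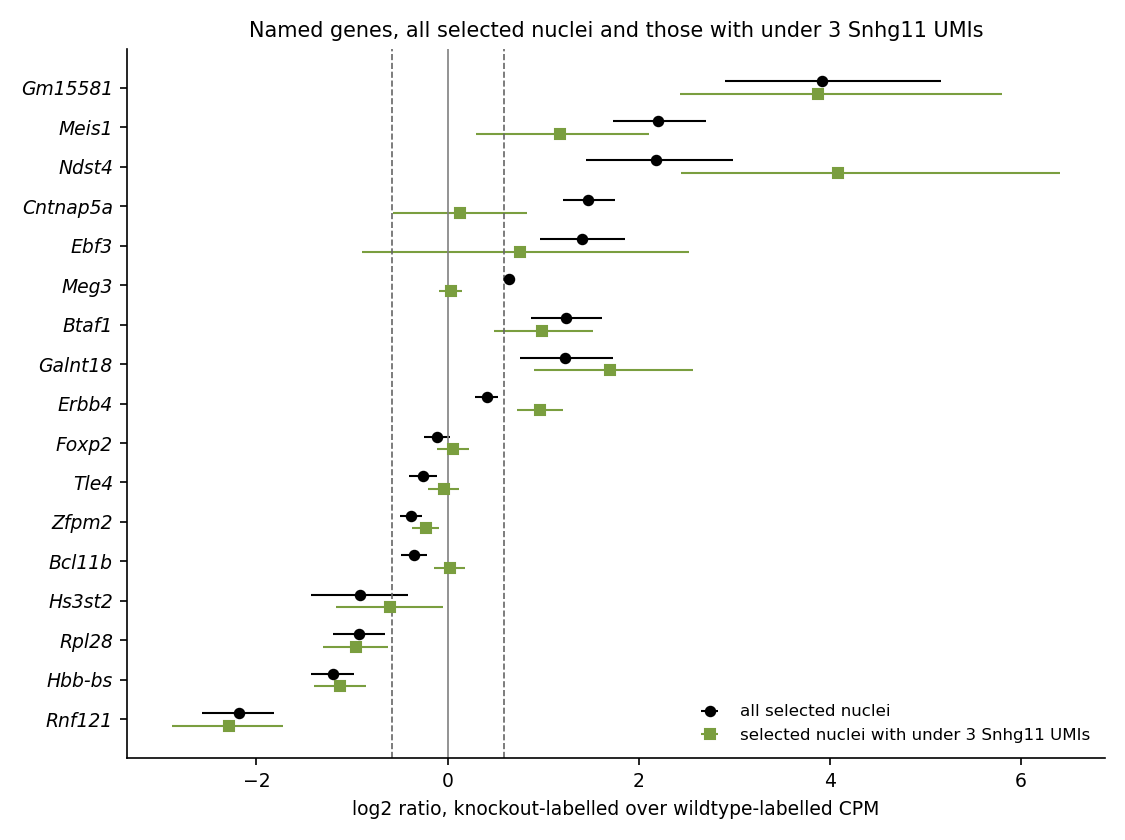
Log2 ratio of knockout-labelled over wildtype-labelled CPM (x axis) with 95% counting intervals for named genes (y axis), over all selected nuclei (black circles) and over those with under 3 Snhg11 UMIs (green squares); dashed lines mark 1.5-fold. Gm15581, Btaf1, Galnt18 and Rnf121 had similar ratios in both sets of nuclei, while Cntnap5a went from 1.47 to 0.13 and Meg3 from 0.64 to 0.032.

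The nuclei with under 3 Snhg11 UMIs were then ranked on their own. The highest ratios were those of Gse1, which encodes a chromatin-associated protein, with 33 and 68 UMIs in 29 and 56 nuclei (1.22, 0.60 to 1.86), and Herc3, a ubiquitin ligase gene, with 47 and 89 UMIs in 34 and 53 nuclei (1.09, 0.57 to 1.64). Htr1f, the serotonin 1F receptor gene, which was also among the genes setting the deep-layer nuclei apart, had 40 and 66 UMIs (0.89). Plxna3, a semaphorin co-receptor gene, had 40 and 63 UMIs and was the 1 of 19 tested guidance receptor genes past the limit. Erbb4, the neuregulin receptor gene that is abundant in inhibitory neurons, had 234 and 405 UMIs (0.96), but in only 30 and 33 nuclei, with 71 and 48 UMIs in the top nucleus. Unc5d had 154 and 246 UMIs, of which 64 came from 1 knockout-labelled nucleus, and a log2 ratio of 0.41 without that nucleus against 0.85 with it.

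At the low end of the same nuclei, Hs6st3, a heparan sulfate sulfotransferase gene, had 139 and 20 UMIs (−2.62, −3.38 to −1.94), but in only 11 and 13 nuclei. Pde1a, a calmodulin-dependent phosphodiesterase gene, had 180 and 69 UMIs in 50 and 27 nuclei (−1.21, −1.63 to −0.80). Mgat4c, a glycosyltransferase gene, had 371 and 154 UMIs in 80 and 50 nuclei (−1.10, −1.38 to −0.82). The guidance ligand gene Slit3 had 199 and 84 UMIs in 27 and 15 nuclei (−1.07). Slit2 had 81 and 32, with 30 of the 81 in 1 nucleus, and went from −1.17 to −0.50 without it. Lmo3, a LIM-only factor gene, had 192 and 110 UMIs (−0.63) and was lower over all selected nuclei too, with 292 and 235 (−0.67, −0.92 to −0.42). Without the 1 nucleus rich in haemoglobin and ribosomal protein RNA, the genes lower in the knockout-labelled library fell in number from 87 to 64 of 2691 (2.38%), and Hbb-bs went from −1.12 to −0.59.

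Genes of axon growth and of excitability were near equal as groups. The median log2 ratio over all selected nuclei was 0.080 for 26 guidance receptor and adhesion genes and 0.053 for 23 guidance ligand genes, beside −0.0052 over all genes tested. Of 24 receptor genes tested, 0 passed the limit in either direction. Of 14 ligand genes, the semaphorin gene Sema3a (54 and 126 UMIs) and the ephrin gene Efnb3 (29 and 72 UMIs) were higher and 0 were lower. Below the Snhg11 limit Sema3a had 37 and 48 UMIs (0.55, −0.10 to 1.21) and Efnb3 15 and 26 (0.97, −0.0046 to 1.99), and of 9 ligand genes tested there 0 were higher and Slit2 and Slit3 were lower. Of 19 glutamate receptor genes, Grik1 and Grik4 were higher and 0 lower, but below the Snhg11 limit Grik1 had 34 and 24 UMIs, a log2 ratio of −0.33, and Grik4 13 and 12. Of 25 voltage-gated channel genes, 3 were higher, among them the calcium channel subunit gene Cacna2d2, and 0 lower, and 0 of 18 passed below the Snhg11 limit in either direction. Of 25 genes of neuron maturation and synapses, Syt4, Snhg11 and Meg3 were higher, and 0 of 23 passed below the limit. Of 14 cadherin genes, Pcdh15, Pcdh17 and Pcdh19 were higher, and 0 of 9 below the limit. Of 9 area patterning genes, Efna5 was higher (240 and 485 UMIs, 0.66) and Lmo3 lower. Of the 7 tested below the limit, Lmo3 was again lower, while the higher gene was the cadherin gene Cdh8, with 74 and 118 UMIs (0.85, 0.41 to 1.28), and Efna5 had 93 and 103 (0.32).

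The study's title names metabolic programming, and 3 metabolic lists were examined. Of 15 tested genes of glycolysis and the citrate cycle, 0 were higher and 1 was lower, Gapdh, with 98 and 83 UMIs (−0.59, −1.03 to −0.16), and the median over 35 genes was −0.13. Gapdh went to −0.36 with the top nucleus of each library left out. Below the Snhg11 limit, Gapdh and Pkm were lower among 4 tested genes (−0.78 and −0.66), and stood at −0.48 and −0.29 without the nucleus rich in haemoglobin RNA. Of 9 cholesterol synthesis genes, 1 was higher, Sqle, which encodes squalene epoxidase, with 61 and 130 UMIs in 48 and 88 nuclei (0.74, 0.29 to 1.20). Below the Snhg11 limit Sqle had 37 and 51 UMIs (0.64), too few to be tested, and the list's median was 0.25 over all selected nuclei and 0.23 below the limit. Of 15 genes of insulin and mTOR signalling 0 passed in either direction, with a median of 0.022. The counts over all selected nuclei are to be read against 2.82% of all genes higher and 1.93% lower, and those below the Snhg11 limit against 1.86% higher and 3.16% lower.

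**Figure D5:**
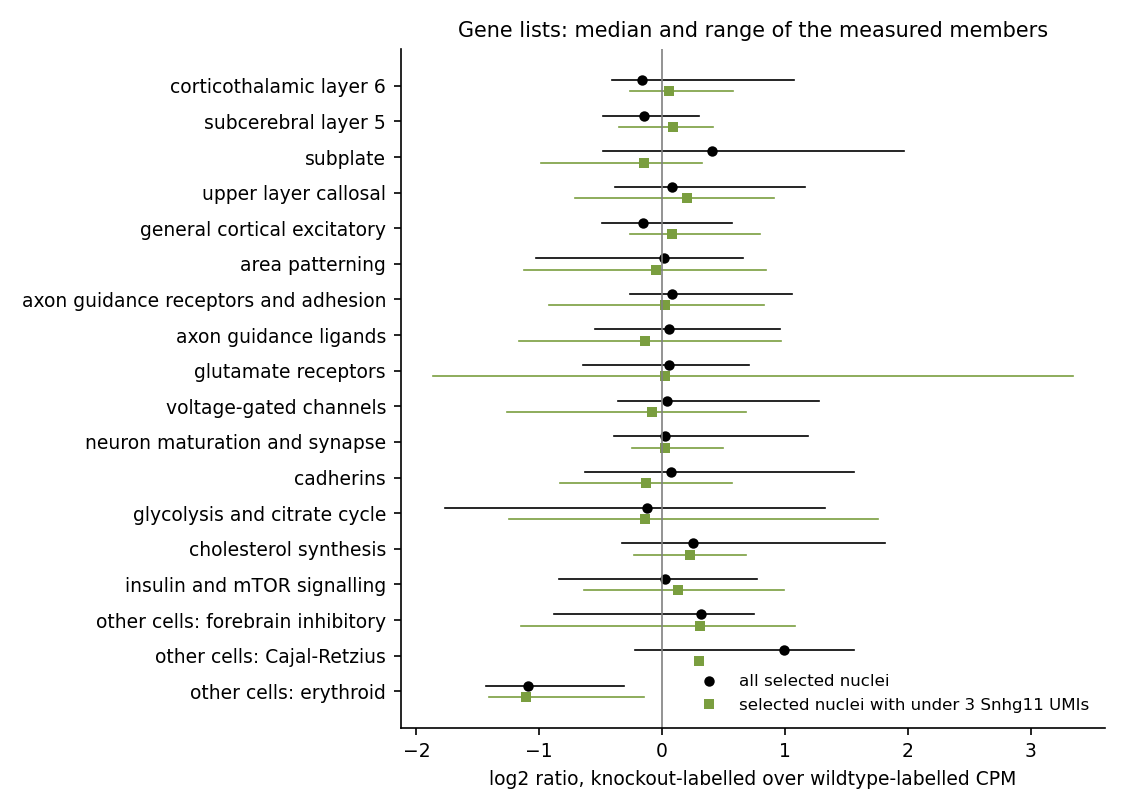
Median (symbols) and range (lines) of the log2 ratio of knockout-labelled over wildtype-labelled CPM (x axis) over the members of each gene list with 20 or more UMIs (y axis), over all selected nuclei (black circles) and over those with under 3 Snhg11 UMIs (green squares). Most medians lay near 0; the erythroid list lay at −1.09 and −1.11, and the Cajal-Retzius list lay at 0.99 over all selected nuclei.

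Markers of other cells moved with the library in part. The 10 inhibitory markers summed to 1081 and 1398 CPM in the selected nuclei, with 1 of 4 tested higher (Gad1, 40 and 82 UMIs, and 8 and 15 below the Snhg11 limit). Below the limit they summed to 523 and 849 CPM, with Erbb4 the 1 gene tested and higher, and above it to 2071 and 1837 CPM, lower in the knockout-labelled library. The 8 Cajal-Retzius genes summed to 123 and 253 CPM, with 2 of 2 tested higher, and to 58.9 and 54.0 CPM below the Snhg11 limit. The 10 midbrain and thalamus genes summed to 947 and 1133 CPM, with 1 of 5 higher, and to 368 and 525 CPM below the limit. Radial glia genes were near equal (924 and 916 CPM, 0 of 5 past 1.5-fold), also below the Snhg11 limit (939 and 954 CPM). Endothelial and mural, meningeal and microglial genes were scarce, at 99.0 and 107, 71.0 and 48.6, and 24.5 and 36.3 CPM, with none reaching 100 UMIs. The endothelial and mural sums went in opposite directions in the 2 classes of nuclei, at 56.2 and 157 CPM below the Snhg11 limit and 175 and 66.5 CPM above it, and the microglial sums were 31.5 and 17.0 CPM below it and 12.2 and 51.7 CPM above it. The part of these cells, or of their free RNA, in the ratios of the selected nuclei was not tested.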

How the data were processed

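Single-nucleus libraries were made from frozen fetal brain with 10x Genomics 3′ chemistry, per the labels' protocols. The authors deposited raw UMI counts per gene and barcode for 55416 features, for which the file headers name Cell Ranger 6.1.1, while the submitters' processing notes list Cell Ranger 3.0.1, STAR and the GRCm39 build. Whether introns or the strand were used in counting is not given in the sources used here. The 2 deposited matrices held 19048835 and 22504908 UMIs, and 54749 features (98.8%) matched GENCODE M39 by identifier.

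Nuclei with at least 500 genes and at most 5% mitochondrial UMIs were kept. Counts were summed per library over the selected nuclei and scaled to CPM, with numpy 2.4.6, scipy 1.17.1, pandas 2.3.3 and, for Scrublet, scanpy 1.11.5. Ratios carry exact conditional binomial intervals and shares exact Clopper-Pearson intervals, all at 95%. Between libraries, a gene was tested with 100 or more UMIs over both. Against Unc5d-positive nuclei, it needed 100 or more over both sets in each library. Between the classes of nuclei by Snhg11, it needed 100 or more in the selected nuclei of each library. A gene was counted past the limit at 1.5-fold. List medians used members with 20 or more UMIs. The floor for a count of 0 was 3 counts. The script was tested on simulated data. The members, the gene lists and the rules were chosen with earlier results of these data known. Genes named are those of the selection and of caveolae, the 12 highest and 12 lowest ratios between libraries, the 15 highest and 10 lowest against Unc5d-positive nuclei, and from each list up to 4 members by UMIs and 2 by ratio. The ranking of nuclei with under 3 Snhg11 UMIs, and the genes named from it, were added after seeing the data. Alternatives covered the filters, the limits, doublet scores, thinning, the rule's strictness and scaling by median ratios. The selected nuclei were not compared by any model, since each genotype has 1 library. Values of some genes are not reported here.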

Additional observations from a re-analysis of the deposited data

How the results depend on the processing

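No paired analysis was possible because each genotype has 1 library and the labels give no shared replicate numbers. One library per genotype, 467 nuclei and a few very deep nuclei limit these results, and genes under about 100 UMIs could not be ranked. Scaling by median ratios shifted log2 ratios by −0.0049. The interval of the difference in share held 0 under every alternative tried, while its sign turned when thinned (−0.045 points), at 1% mitochondrial UMIs (−0.061), without Snhg11-rich nuclei (−0.36) and without inhibitory marker UMIs (−0.18). Gm15581 and Cav2 were higher in the knockout-labelled library under every alternative that gave a value. The cause of changes under these alternatives was not tested.

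The counts of genes higher and lower in the knockout-labelled library, 145 and 99, were 29 and 10 at 2-fold, 370 and 296 with a minimum of 50 UMIs, 52 and 38 with 200, and 12 and 17 with nuclei thinned to 2000 UMIs. With the nucleus holding the most UMIs of each gene left out in 1 library at a time, 91 and 32 genes passed both times. There were 51 higher genes without nuclei of 3 or more Snhg11 UMIs, and 169 lower genes without the highest doublet scores but 48 without nuclei of 3 or more inhibitory marker UMIs.

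Thinned to 2000 UMIs, Gm15581 was at 2.71, the log2 lower bound for Cav2 at 0.90, and the list medians at −0.0099 (corticothalamic), −0.49 (subplate), −0.48 (upper layer), −0.28 (area patterning) and 0.23 (insulin and mTOR). Rps19 turned to 0.13, Hbb-bt to 0.036, Efna5 to −0.46, Grik1 to −1.32 and Hmgb2 to 0.15. Without nuclei of 3 or more Snhg11 UMIs the bound for Cav2 was 3.05, and the medians were 0.054 (corticothalamic), 0.088 (subcerebral), −0.15 (subplate), 0.080 (general excitatory), −0.13 (cadherins) and 0.30 (Cajal-Retzius), with Thsd7b at −0.26 and Grik1 at −0.33. Without nuclei over 3 times the median depth, Cav1 was at 2.37, the subplate median at −0.079, Htr2c at 0.19 and Col1a1 at 0.47. Without nuclei of inhibitory marker UMIs, Grik1 was at −0.089 and Col1a1 at 0.73. Without the highest doublet scores, the Cajal-Retzius median was 1.63 and Htr2c was at 0.17. With 2 or more Neurod2 or Neurod6 UMIs the medians were 0.024 (corticothalamic), 0.37 (glutamate receptors) and 0.18 (cadherins), and D130079A08Rik was at 0.072. The corticothalamic median was −0.072 under a stricter rule, with D130079A08Rik at 0.92, −0.093 with at most 1% mitochondrial UMIs and −0.13 with members of 5 or more UMIs.

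Against Unc5d-positive nuclei, the corticothalamic medians of 1.12 and 0.97 were 1.36 and 1.41 without Snhg11-rich nuclei, 1.39 and 1.25 without the highest doublet scores, 1.28 and 1.24 without the deepest nuclei, 1.36 and 1.29 without inhibitory marker UMIs, and 0.78 and 0.78 over members with 50 or more UMIs. The first was 0.77 against all other nuclei with helix-loop-helix UMIs. The second was 1.25 with 2 Neurod UMIs, 1.13 with a minimum of 1000 genes and 1.36 under the stricter rule. The wildtype-labelled subcerebral median of 0.54 was 0.36 with 2 Neurod UMIs, 0.70 without the highest doublet scores, 0.72 when thinned, 0.28 without Snhg11-rich nuclei and 0.70 without the deepest nuclei. The wildtype-labelled subplate median of −0.25 was 0.19 and 0.36 with minimums of 5 and 50 UMIs and 1.63 when thinned, and the knockout-labelled one of −0.06 was −0.88 without Snhg11-rich nuclei. When thinned, the upper layer medians were −1.91 and −2.34 and the general excitatory ones 0.065 and 0.23, and without Snhg11-rich nuclei the latter were 0.057 and 0.30.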
